A study of Homo sapiens with 2 samples.

Results

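The genes of the distal long arm of chromosome 2 were compared between MDA-MB-231 cells, an established line of triple negative breast cancer, and RT-R-MDA-MB-231 cells (RT-R), its radiotherapy-resistant derivative. The RT-R line had been irradiated in X-ray fractions of 2 Gy, 50 Gy in all, and both lines were kept in RPMI medium with 10% serum. Each line gave 1 library of total RNA prepared by 3' tag sequencing, in which reads come from the tail end of mRNAs. The 59 members, of 24462 gene symbols in all, run in gene order from RAPH1 to D2HGDH and were picked because this stretch reads higher in RT-R. Their ratios of RT-R to parental are therefore a description and have no test. With 1 library per line there is also no replicate check, and whether the RT-R line is 1 clone is not stated in the sources used here.

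What these genes have in common is position rather than function. They encode transcription factors, enzymes, ubiquitin ligases, autophagy proteins, kinases and parts of the cytoskeleton. Genes on one stretch of a chromosome share its DNA copy number in a cell and are otherwise mostly regulated one by one, each from its own promoter or from a start region that it shares with a neighbour on the opposite strand. DNA copy number was not measured here.

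Promoter sequences were available for 54 of the 59 members in RefSeq (GRCh38.p14), each from 250 bases before to 50 bases after the first listed transcription start. AAMP, USP37, TTLL4, ANKZF1 and AGAP1 had no entry. The 7 windows printed, chosen after the values were seen, are those of genes that the results turn on. ATIC, ARMC9 and D2HGDH had some of the highest ratios. STK36, SP110, STK16 and ING5 each lie head to head with a neighbour, and ING5 and STK16 had low ratios. Capitals mark the motifs searched for on both strands, which can overlap: the GC box GGGCGG, the CCAAT box CCAAT, the core TGACG of the cAMP response element, the E-box CACGTG, the ETS core CCGGAAG and the TATA box TATAAA. The windows of ATIC (chr2:215311809-215312108 on the plus strand), ARMC9 (chr2:231198381-231198680 on the plus strand) and D2HGDH (chr2:241734380-241734679 on the plus strand) read as follows, 5′ to 3′.
ATIC: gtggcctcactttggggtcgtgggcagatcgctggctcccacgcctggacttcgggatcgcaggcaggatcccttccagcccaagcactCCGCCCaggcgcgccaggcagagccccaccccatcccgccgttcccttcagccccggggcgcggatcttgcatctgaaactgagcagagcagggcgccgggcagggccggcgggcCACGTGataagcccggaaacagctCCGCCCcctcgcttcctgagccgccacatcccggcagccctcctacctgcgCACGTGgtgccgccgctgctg
ARMC9: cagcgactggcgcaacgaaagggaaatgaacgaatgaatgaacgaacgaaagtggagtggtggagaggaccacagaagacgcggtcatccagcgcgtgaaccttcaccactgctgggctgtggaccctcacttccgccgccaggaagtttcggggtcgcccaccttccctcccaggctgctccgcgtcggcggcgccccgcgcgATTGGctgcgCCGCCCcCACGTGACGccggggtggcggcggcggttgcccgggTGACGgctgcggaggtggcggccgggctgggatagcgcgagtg
D2HGDH: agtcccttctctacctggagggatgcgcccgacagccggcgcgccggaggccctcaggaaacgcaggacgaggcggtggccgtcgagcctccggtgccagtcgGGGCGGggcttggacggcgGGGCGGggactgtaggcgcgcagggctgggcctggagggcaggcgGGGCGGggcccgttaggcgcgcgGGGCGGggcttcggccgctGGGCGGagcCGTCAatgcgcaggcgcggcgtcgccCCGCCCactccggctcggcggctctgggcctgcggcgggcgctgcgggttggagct
The ATIC window holds 2 E-boxes and 2 GC boxes, that of ARMC9 an E-box that overlaps the cAMP element core, and that of D2HGDH 6 GC boxes. The windows of STK36 (chr2:218671836-218672135 on the plus strand), SP110 (chr2:230225587-230225886 on the minus strand), STK16 (chr2:219245229-219245528 on the plus strand) and ING5 (chr2:241686770-241687069 on the plus strand) follow.
STK36: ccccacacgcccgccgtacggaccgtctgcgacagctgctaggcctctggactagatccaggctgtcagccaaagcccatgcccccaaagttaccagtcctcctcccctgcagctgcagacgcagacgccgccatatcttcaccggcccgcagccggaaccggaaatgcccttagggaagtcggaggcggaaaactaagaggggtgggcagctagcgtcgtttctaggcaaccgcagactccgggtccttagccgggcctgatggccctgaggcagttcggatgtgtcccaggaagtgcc
SP110: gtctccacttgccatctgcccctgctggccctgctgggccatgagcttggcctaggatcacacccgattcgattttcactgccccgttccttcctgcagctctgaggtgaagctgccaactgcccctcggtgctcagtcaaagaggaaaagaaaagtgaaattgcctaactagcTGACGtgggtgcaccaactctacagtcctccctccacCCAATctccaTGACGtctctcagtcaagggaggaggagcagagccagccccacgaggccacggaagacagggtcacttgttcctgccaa
STK16: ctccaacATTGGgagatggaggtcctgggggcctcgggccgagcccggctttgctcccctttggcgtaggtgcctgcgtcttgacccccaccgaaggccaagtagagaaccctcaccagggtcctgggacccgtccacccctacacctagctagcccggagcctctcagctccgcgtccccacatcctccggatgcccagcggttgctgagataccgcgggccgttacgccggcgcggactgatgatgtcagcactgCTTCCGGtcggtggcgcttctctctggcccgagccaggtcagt
ING5: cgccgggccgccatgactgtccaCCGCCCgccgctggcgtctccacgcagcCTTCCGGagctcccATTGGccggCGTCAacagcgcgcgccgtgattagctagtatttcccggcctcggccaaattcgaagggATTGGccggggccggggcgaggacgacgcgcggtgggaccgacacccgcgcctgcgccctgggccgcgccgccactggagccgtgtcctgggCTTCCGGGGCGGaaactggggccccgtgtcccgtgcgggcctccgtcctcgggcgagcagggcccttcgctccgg
No letters of these motifs occur in the STK36 window, and ING5 holds 2 matches each of the GC box, the CCAAT box and the ETS core.

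Of the 59 members, 57 had at least 20 counts in a library and were measured. INPP5D, a lipid phosphatase of blood cells, had 0 counts in both libraries. SCLY, selenocysteine lyase, had 0 parental counts and 1 RT-R count, so a difference was not detectable with these counts for either gene. SCLY overlaps the readthrough gene UBE2F-SCLY on the same strand, which had 91 parental and 128 RT-R counts. Whether reads of SCLY were counted there is not known. The parental library held 9255008 counts and the RT-R library 10014804. Ratios below are RT-R to parental after scaling, with 95% intervals that cover counting error only. A gene was said to rise when its ratio reached 2-fold and its interval lay above 1. Markers of the line were checked next. ESR1 had 0 and 1 counts, PGR 0 and 0, and the mesenchymal marker VIM 4310 and 8454. ERBB2 had 230 and 174 counts, CD44 2560 and 3129, and the epithelial markers EPCAM 15 and 26 and CDH1 32 and 68. Of the markers of other cells, PTPRC had 0 counts in both libraries, while COL1A1 had 59 and 76 and the endothelial marker PECAM1 223 and 50. The part of other cells in the results was not tested.

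The measured members had a median log2 ratio of 0.58, a median fold of 1.5, with quartiles of 1.32-fold and 1.8-fold. In all, 54 lay above equal expression and 3 below. The median over all 12644 measured genes was -0.01. In RT-R 28 of the 57 (49.1%) reached 1.5-fold higher, where 14.9% of all measured genes did, and 0 reached 1.5-fold lower, where 12.6% of all genes did. A rise of at least 2-fold was found for 10 (17.5%), against 6.89% of all genes, and 0 were 2-fold lower with an interval below 1, against 3.97%. The counting interval lay above 1 for 47 members, held 1 for 10 and lay below 1 for 0, where 27.7% and 30.4% of all measured genes had an interval above or below 1. Because the members were picked as higher, these shares describe the block and say nothing more. Together the 57 genes took 0.521% of the parental and 0.785% of the RT-R counts. Their summed counts, 48216 and 78621, gave a ratio of 1.46 (1.45 to 1.48).

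The shift was similar in highly and weakly expressed members. Among 39 members with 500 or more counts over both libraries the median log2 ratio was 0.58, against -0.06 over all genes of that depth. In the other 18 it was 0.60, against 0.06. Without the 6 members of highest RT-R count (NCL, PTMA, EEF1B2, LRRFIP1, ARPC2 and AAMP) the median was 0.59 and the summed ratio 1.49 (1.47 to 1.52). The interquartile range of the members' log2 ratios was 0.45, against 0.54 over the rest of chromosome 2 and 0.68 over all measured genes. Over the other measured genes of the block it was 0.51. With 500 or more counts it was 0.35 over members and 0.54 over all measured genes. The plot of levels by role shows nearly every RT-R point to the right of its parental point.

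**Figure D1:**
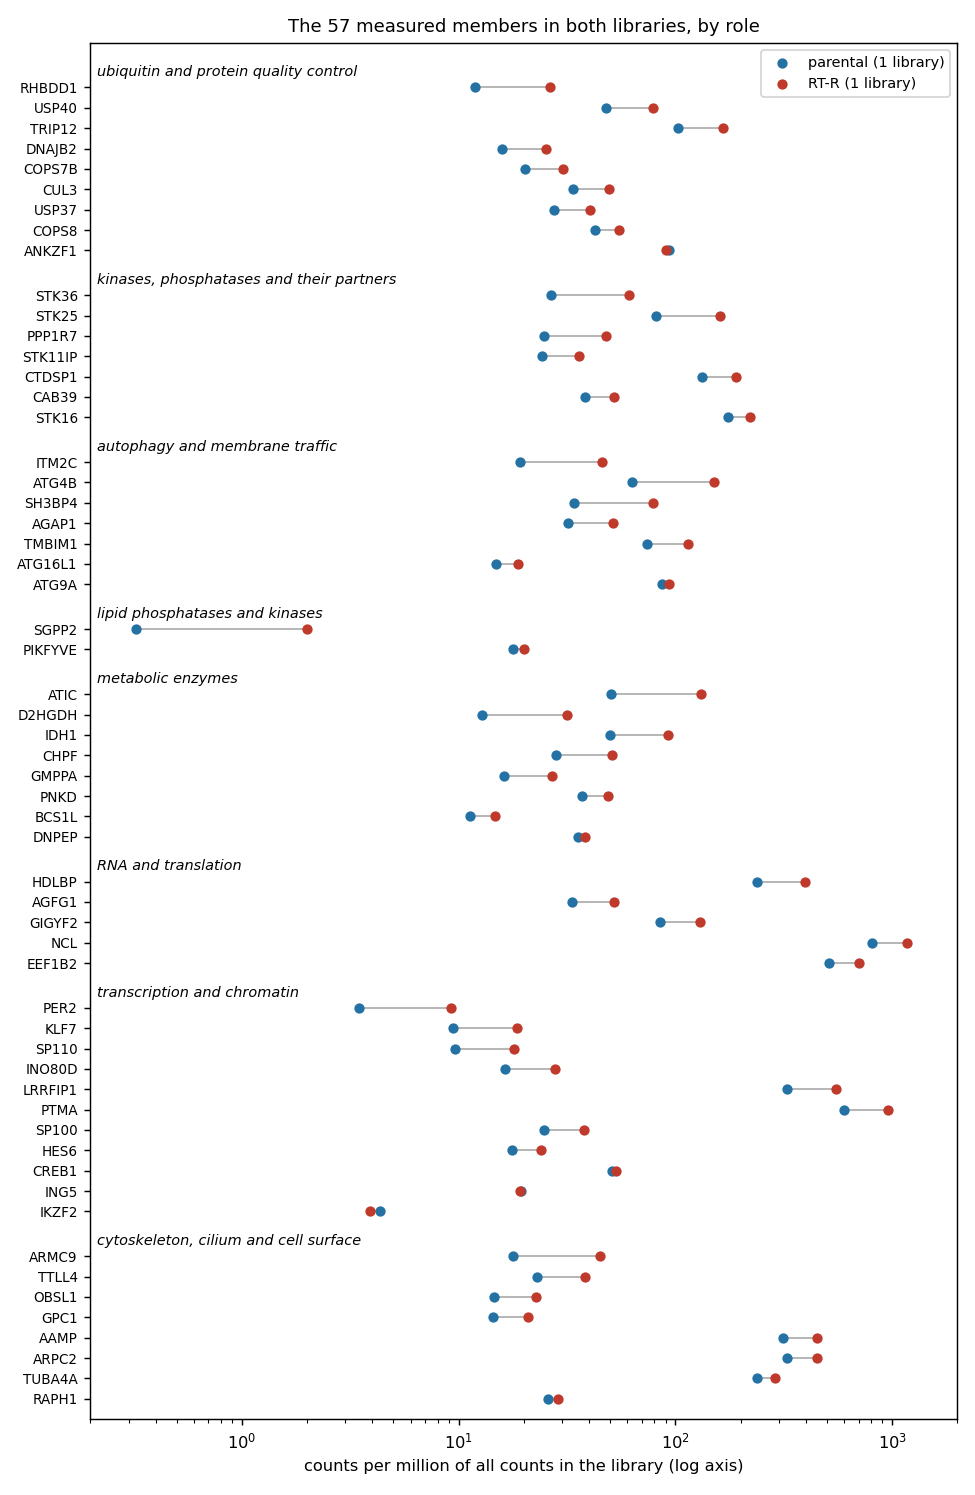
Counts as CPM, a share of the library total, in the parental (blue) and RT-R (red) library for the 57 measured members, 1 line per gene, grouped by role and sorted by ratio within each role; the horizontal axis is logarithmic. RT-R lies higher for 54 genes by log2 ratio after scaling; CREB1, ATG9A and DNPEP are nearly level, and ANKZF1, ING5 and IKZF2 lie slightly lower.

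Members were next followed in gene order. In the 10 measured genes just before RAPH1 the median log2 ratio was 0.12 and 2 reached 1.5-fold higher. In RAPH1 and the 9 genes after it the median was 0.58 and 5 did. The values did not change at 1 clear gene. Just outside lay NBEAL1 with 41 and 66 counts (log2 ratio 0.52), CYP20A1 with 581 and 667 (0.04) and ABI2 with 591 and 1152 (0.81). Just inside lay RAPH1 with 239 and 287 counts (0.11), PARD3B with 152 and 251 (0.56) and NRP2 with 156 and 208 (0.26). ABI2, outside the block, was thus higher than RAPH1, its first gene. At the other end D2HGDH was the last measured gene, and the 5 listed beyond it (GAL3ST2, NEU4, PDCD1, RTP5 and LINC01237) had at most 5 counts in a library.

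Within the block the level was lower in the first stretch than in the later ones. The first 19 measured members, RAPH1 to ATG9A, had a median log2 ratio of 0.48, the next 19, ANKZF1 to ARMC9, 0.60, and the last 19, NCL to D2HGDH, 0.64. In the same order, 6, 11 and 11 members reached 1.5-fold, and 13, 17 and 17 had an interval above 1. Windows of all measured block genes, described below, did not follow this order. The highest median was 0.65 from IDH1-AS1 to TNS1, near the start, and the lowest 0.47 from ABCB6 to AP1S3. For each member the median of its block neighbours, up to 7 on each side, lay between 0.41 and 0.79, so members with low ratios stood among neighbours with raised ones. Low ratios lay side by side in a run of 5 adjacent genes from ATG9A to TUBA4A, with GLB1L among them. The median of the run was 0.06 and its range -0.08 to 0.29. Within it ANKZF1 overlaps GLB1L and STK16 overlaps TUBA4A, so the 5 readings may not be separate. The 5 genes before this run had a median of 0.55 and the 5 after it 0.62. The run was picked after its values were seen.

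**Figure D2:**
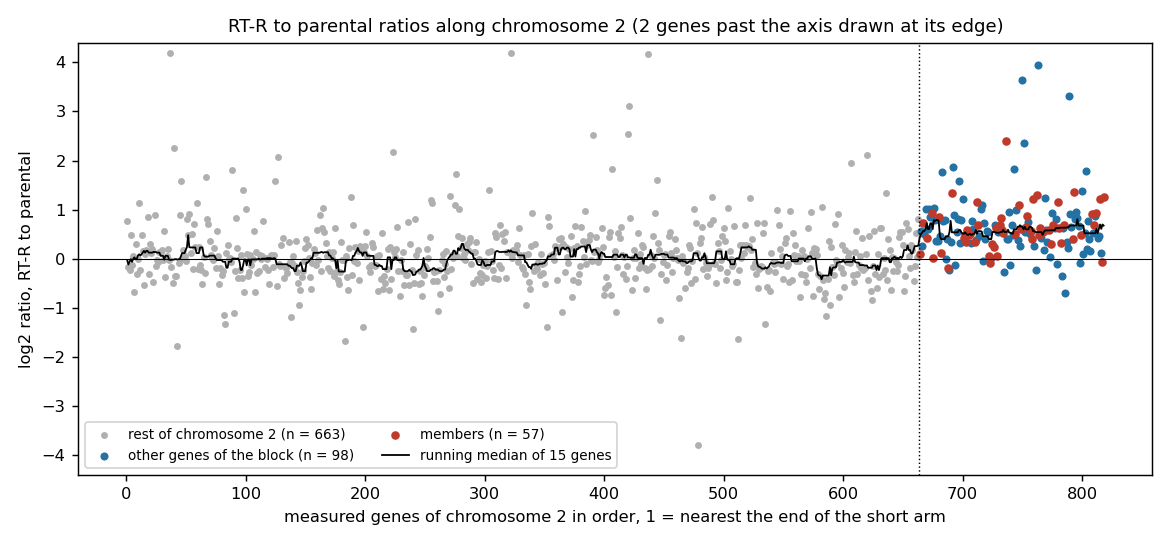
Log2 ratio of RT-R to parental for every measured gene of chromosome 2 in gene order, with members in red, other genes of the block in blue, the rest of the chromosome in grey, the running median of 15 genes as a black line and a dotted line before RAPH1. The running median lies between -0.42 and 0.48 over the 663 genes before the block and between 0.40 and 0.80 over the 155 genes of the block.

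The 98 other measured genes of the block had a median log2 ratio of 0.55, with a wider range than the members (-0.70 to 3.94 against -0.19 to 2.41) and a higher summed ratio, 1.79 (1.78 to 1.81). Of them, 87 lay above 0 and 45 (45.9%) were past 1.5-fold. Both counts include genes that entered the measured set through their RT-R counts alone, such as MAP2 with 15 and 58 counts. Of the 35 with 500 or more counts over both libraries, 30 lay above 0 and 14 (40%) were past 1.5-fold. The 663 measured genes of the rest of chromosome 2 had a median of 0.01, and 13.1% of them reached 1.5-fold. The whole stretch was picked because it reads higher in RT-R, so this contrast describes it and is no separate evidence. Single genes of the block stood far from the block median. The 5 highest by the lower bound of the interval were CCL20, a chemokine, with 63 and 883 counts (12.6-fold), the glycosyltransferase gene B3GNT7 with 5 and 93 (16.7-fold), PID1 with 70 and 402 (5.15-fold), KLHL30 with 3 and 38 (11.4-fold), and FN1, fibronectin, with 6484 and 26555 (3.67-fold). Of these 5, B3GNT7 and KLHL30 entered the measured set through their RT-R counts alone. Their intervals were wide, 6.90 to 52.6 for B3GNT7 and 3.60 to 57.5 for KLHL30. Against the block, RAMP1, a receptor-modifying protein, went from 160 to 110 counts, 1.62-fold lower (1.26 to 2.09). The proteasome subunit gene PSMD1 went from 1271 to 1206, 1.18-fold lower (1.09 to 1.27). AP1S3 (820 and 841 counts) and MYEOV2 (768 and 808) had intervals that held 1.

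Measured genes of each chromosome were also taken in successive windows of 20, with the last window of a chromosome longer. The 7 windows that held genes of the block had medians between 0.47 and 0.65, while the 33 other windows of chromosome 2 lay between -0.25 and 0.21. Since the stretch was picked as higher, this contrast was partly set in advance. Of 605 windows outside the block, 8 reached the lowest block window. Of these, 7 were on chromosome 13, which has 11 windows, and 1 was on chromosome 1. On chromosome 13, 5 windows lay above every block window, up to a median of 0.87, so the block did not hold the highest windows.

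**Figure D3:**
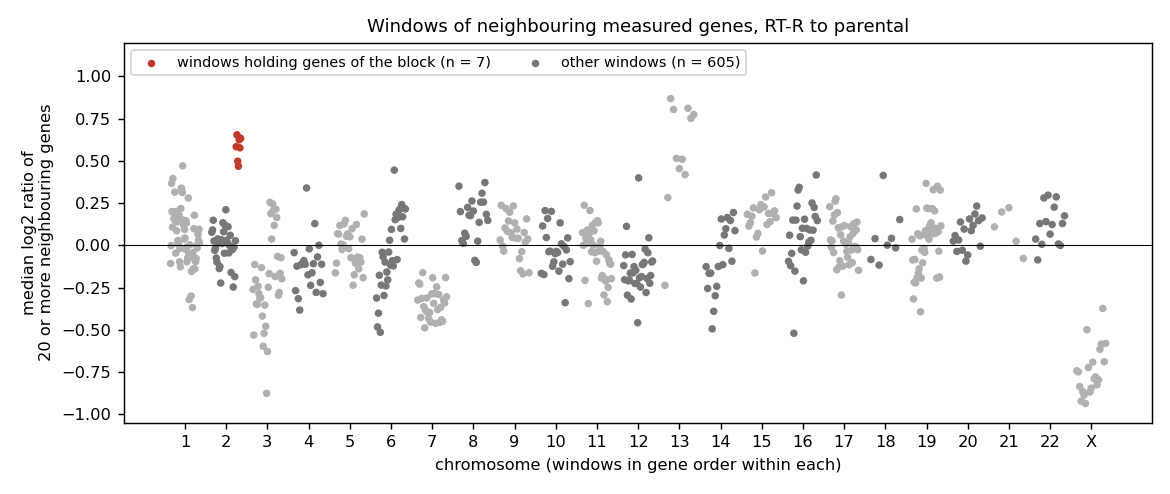
Median log2 ratio of RT-R to parental in each window of 20 or more neighbouring measured genes, by chromosome, with windows holding genes of the block in red. The 7 red windows lie between 0.47 and 0.65, apart from the other windows of chromosome 2; 5 windows of chromosome 13 lie above them, and the windows of the X chromosome lie low.

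Among the members that act in transcription and chromatin, 1 of 11 rose at least 2-fold and 6 reached a 1.5-fold ratio. PER2, a repressor of the circadian clock, had 32 parental and 92 RT-R counts and rose 2.58-fold (1.71 to 3.98). KLF7, a zinc finger factor, had 87 and 186 counts, ratio 1.92 (1.48 to 2.5). The nuclear body proteins SP110, with 89 and 181 counts, and SP100, with 230 and 379, had ratios of 1.82 (1.41 to 2.38) and 1.48 (1.3 to 1.7). INO80D, a subunit of the INO80 chromatin remodeller, had 152 and 280 counts, LRRFIP1 3038 and 5487, and PTMA, the acidic nuclear protein prothymosin alpha, 5521 and 9530, with ratios of 1.65, 1.62 and 1.55. HES6, a helix-loop-helix factor, had 163 and 240 counts (1.32, 1.08 to 1.62). The remaining factors were close to equal expression. CREB1, which mediates transcription in response to cAMP, had 473 and 531 counts and a ratio of 1.01 (0.888 to 1.14). ING5, a histone mark reader of acetyltransferase complexes, had 180 and 192 counts (1.05-fold lower, 0.848 to 1.29), and IKZF2, the lymphoid factor Helios, had 40 and 39 (1.14-fold lower, 0.717 to 1.83). All 3 of these intervals held equal expression.

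The RNA and translation members had ratios in a narrow range, from 1.34 to 1.62, and 0 of 5 rose at least 2-fold. NCL, the nucleolar protein nucleolin, had the highest counts of all members, 7506 and 11734, a ratio of 1.40 (1.36 to 1.44). EEF1B2, the exchange factor subunit of elongation factor eEF1, had 4707 and 7024 counts (1.34, 1.29 to 1.39). HDLBP, the RNA-binding protein vigilin, had 2200 and 3978 counts, GIGYF2, a translational repressor, 784 and 1304, and AGFG1 309 and 522, with ratios of 1.62, 1.49 and 1.51. The GENCODE v29 transcripts name 8 pseudogenes after EEF1B2 and 7 after PTMA. None of these has a row in the count tables, so how reads matching several copies were handled is uncertain for both genes.

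In the group of metabolic enzymes, 2 of 8 measured members rose at least 2-fold and 5 reached a 1.5-fold ratio. ATIC, which carries out the last steps of purine synthesis, had 466 and 1318 counts and rose 2.54-fold (2.28 to 2.82). It overlaps FN1 on the opposite strand in the RefSeq gene table, and FN1 itself was 3.67-fold higher (3.57 to 3.77). Whether the counting used strand is not stated, so reads of ATIC and FN1 cannot be told apart with certainty. D2HGDH, the mitochondrial enzyme that oxidises D-2-hydroxyglutarate, had 119 and 316 counts and rose 2.38-fold (1.92 to 2.97). IDH1, the cytosolic NADP-dependent isocitrate dehydrogenase, had 461 and 926 counts, with a ratio of 1.8 (1.61 to 2.02). CHPF, a chondroitin polymerising factor, had 259 and 513 counts and GMPPA, which regulates GDP-mannose synthesis, 150 and 269, with ratios of 1.78 and 1.61. PNKD had 344 and 487 counts, and BCS1L, an assembly factor of respiratory complex III, 104 and 147; both had a ratio of 1.27, and the BCS1L interval, 0.979 to 1.65, held 1. DNPEP, an aspartyl aminopeptidase, had 329 and 382 counts and a ratio of 1.04 (0.896 to 1.21). Of the lipid enzymes, SGPP2, a sphingosine-1-phosphate phosphatase, had only 3 and 20 counts and rose 5.98-fold, with an interval from 1.77 to 31.4. It entered the measured set through its RT-R count alone. PIKFYVE, the lipid kinase that makes phosphatidylinositol 3,5-bisphosphate, had 165 and 201 counts, a ratio of 1.09 (0.885 to 1.35).

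Most ubiquitin and protein quality control genes lay close together, with log2 ratio quartiles of 0.51 and 0.65, but the full range was -0.08 to 1.10. Of 9 measured genes 1 rose at least 2-fold, RHBDD1, a rhomboid protease, with 110 and 264 counts and a ratio of 2.15 (1.72 to 2.71). The scaffold of a ubiquitin ligase family, CUL3, had 312 and 496 counts (1.43, 1.23 to 1.65), and the ligase gene TRIP12 had 947 and 1659 (1.57, 1.45 to 1.7). The deubiquitinase genes USP40 (443 and 793 counts) and USP37 (255 and 405) had ratios of 1.61 and 1.42. Both members of the COP9 signalosome, which removes NEDD8 from cullins, were above 1, COPS7B with 187 and 304 counts (1.46, 1.21 to 1.76) and COPS8 with 392 and 549 (1.26, 1.10 to 1.43). DNAJB2, a neuronal-type HSP40 cochaperone, had 147 and 252 counts, giving a ratio of 1.54 (1.2 to 1.9). ANKZF1, which releases nascent chains from stalled ribosomes, had 860 and 908 counts (1.06-fold lower, 0.961 to 1.16).

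The autophagy and membrane traffic members differed widely among themselves. Of these, 3 of 7 rose at least 2-fold and 4 reached a 1.5-fold ratio. The protease ATG4B, which processes LC3-family proteins, had 586 and 1509 counts and rose 2.31-fold (2.10 to 2.54). ATG16L1, which directs LC3 lipidation to membranes, had 137 and 188 counts (1.23, 0.982 to 1.54), and ATG9A, the lipid scramblase of autophagosome growth, 798 and 931 (1.05, 0.951 to 1.15). These intervals do not overlap that of ATG4B. ITM2C, a transmembrane protein related to amyloid processing, had 178 and 461 counts and rose 2.32-fold (1.95 to 2.78), and SH3BP4, an endocytic adaptor, had 316 and 789 and rose 2.24-fold (1.96 to 2.56). AGAP1, an Arf GTPase-activating protein, had 297 and 515 counts and TMBIM1 685 and 1146, with ratios of 1.55 and 1.5. TMBIM1 and PNKD overlap on opposite strands, as do STK16 and TUBA4A, so reads of these pairs cannot be told apart with certainty either.

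All 7 kinases, phosphatases and their partners had an interval above 1. STK36, a kinase homologous to fly Fused, had 246 and 611 counts and rose 2.23-fold (1.92 to 2.59). STK25, a kinase of the STRIPAK complex, had 756 and 1609 counts and PPP1R7, a regulator of protein phosphatase 1, 228 and 481, with ratios of 1.91 (1.75 to 2.08) and 1.89 (1.61 to 2.22). The LKB1 partners STK11IP, with 224 and 361 counts, and CAB39, with 355 and 524, had ratios of 1.45 (1.22 to 1.71) and 1.32 (1.15 to 1.52). CTDSP1, a phosphatase of the RNA polymerase II tail, had 1223 and 1913 counts (1.40, 1.30 to 1.51), and STK16, a membrane-bound kinase, 1613 and 2202 (1.22, 1.15 to 1.31).

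Among cytoskeletal, ciliary and surface members 1 of 8 rose at least 2-fold. ARMC9, a protein of the ciliary base, had 165 and 451 counts and rose 2.45-fold (2.05 to 2.95). TTLL4, a tubulin glutamylase, had 213 and 385 counts, OBSL1, a cytoskeletal adaptor, 135 and 227, and GPC1, the heparan sulfate proteoglycan glypican 1, 133 and 208, with ratios of 1.62, 1.51 and 1.40. ARPC2, a core subunit of the actin-nucleating Arp2/3 complex, had 3023 and 4523 counts (1.34, 1.28 to 1.41) and AAMP, a migration-associated protein, 2906 and 4517 (1.39, 1.33 to 1.46). TUBA4A, an alpha tubulin, had 2196 and 2875 counts (1.17, 1.11 to 1.24). RAPH1, the lamellipodial protein lamellipodin, had 239 and 287 counts, a ratio of 1.08 whose interval, 0.904 to 1.28, held 1.

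Many members are single subunits of complexes whose other genes lie elsewhere in the genome, so 20 lists of such partner genes were compared. Of 159 measured partner genes outside the block, 10 (6.29%) reached 1.5-fold higher and 17 (10.7%) reached 1.5-fold lower, where 14.9% and 12.6% of all measured genes did. Their median log2 ratio was -0.06, where all measured genes had -0.01. The partners had a median of 781 counts over both libraries, against 483 for all measured genes. Among measured genes with 500 or more counts, 7.36% reached 1.5-fold higher, 9.93% reached 1.5-fold lower, and the median was -0.06. The partner shares were thus near those of genes of similar depth. The member had a higher ratio than the median of its partners in 25 of 26 cases, ATG9A being the exception, and a higher ratio than every one of them in 16. Since the members were picked as higher, this order was partly set in advance. In the Arp2/3 complex, 0 of 8 partners were 1.5-fold higher or lower. They ranged from ARPC1A, with 1781 and 1399 counts (log2 ratio -0.51), to ARPC5L, with 1943 and 2613 (0.27), beside 0.42 for ARPC2. In the COP9 signalosome, 0 of 7 partners were 1.5-fold higher and 2 were lower. COPS6, with 1237 and 835 counts (-0.72), was lowest and COPS5, with 166 and 201 (0.12), highest. A further subunit lies in the block, MYEOV2, also named COPS9, with 768 and 808 counts.

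The other enzymes around IDH1 and D2HGDH were mostly not higher. Of 5 partners 2 reached 1.5-fold lower and 0 higher, and their median was -0.56. IDH3G, on the X chromosome, had 225 and 147 counts (log2 ratio -0.77) and IDH2 236 and 341 (0.37). The 5 other enzymes of purine synthesis had a median of -0.27, with 0 past 1.5-fold, from PPAT with 386 and 330 counts (-0.38) to GART with 473 and 692 (0.39), beside 1.34 for ATIC. In the cullin-3 list 0 of 14 were higher and 1 lower, UBE2M, the NEDD8-conjugating enzyme, which fell from 1697 to 836 counts (-1.18). The highest there was KLHL12 with 330 and 514 counts (0.48). The STRIPAK list had 1 of 13 higher and 1 lower, STK24 with 778 and 1456 counts (0.75) and STRIP2 with 65 and 42 (-0.78), beside 0.93 for STK25. In the INO80 complex 1 of 13 was higher, ACTR5 with 125 and 249 counts (0.83), and 2 were lower, INO80C lowest with 114 and 74 (-0.78).

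Some lists held partners at or above the member. The 4 other genes of the eEF1 complex had a median of 0.40, close to 0.42 for EEF1B2, with EEF1A1 highest at 10293 and 20483 counts (0.84) and VARS lowest at 299 and 320 (-0.06). Of 27 autophagy genes outside the block 2 reached 1.5-fold higher and 3 reached it in the other direction. MAP1LC3B, an LC3 gene and so a substrate of ATG4 proteases, rose from 643 to 1483 counts (1.05), while MAP1LC3A fell from 114 to 46 (-1.46). ATG4A, a close relative of ATG4B on the X chromosome, fell from 413 to 202 counts (-1.19) and is named here after its value was seen, as is CHST12 below. In the clock list 1 of 16 was higher, RORA with 10 and 30 counts (1.39), and 2 were lower, CIART lowest with 49 and 21 (-1.36), beside 1.35 for PER2. RORA entered the measured set through its RT-R count alone, and its ratio interval, 1.28 to 6.17, held the PER2 ratio of 2.58. The CREB coactivator CRTC2 rose from 192 to 589 counts (1.46) and CREBBP, the lowest, had 263 and 179 (-0.71), while CREB1 stood at 0.01. METTL21A, which overlaps CREB1 on the opposite strand, had 54 and 124 counts, a ratio of 2.06 (1.48 to 2.89). Of 8 chondroitin synthesis genes 1 was higher, CSGALNACT2 with 187 and 416 counts (0.99), and 2 fell at least 2-fold, CSGALNACT1 (40 and 14, -1.64) and CHST12 (386 and 200, -1.10). The glypican GPC2, with 14 and 32 counts (1.01), was above GPC1 (0.49), and SDC3, with 92 and 76 (-0.43), was lowest of those 6. GPC2 entered the measured set through its RT-R count alone, and its ratio interval, 1.06 to 4.16, held the GPC1 ratio of 1.40.

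The remaining lists held few genes past 1.5-fold. Of 5 nuclear body genes outside the block 0 were past 1.5-fold in either direction, from ATRX, on the X chromosome, with 1590 and 1227 counts (-0.53) to DAXX with 816 and 873 (-0.06). The SP100 relatives inside the block, SP140 with 36 and 68 counts and SP140L with 159 and 250, had log2 ratios of 0.75 and 0.49. EIF4E2, the cap-binding partner of GIGYF2, also lies in the block and had 791 and 1318 counts, a ratio of 1.49 (1.37 to 1.63), equal to that of GIGYF2. GIGYF1, on chromosome 7, had 311 and 237 counts (-0.55) and ZNF598 346 and 489 (0.34). In the LKB1 list STRADB, on chromosome 2 before the block, was lowest with 280 and 198 counts (-0.66) and STRADA highest with 90 and 142 (0.50). Protein phosphatase 1 genes ran from PPP1CC (1268 and 962, -0.56) to PPP1CB (598 and 735, 0.14), and relatives of CTDSP1 from CTDSPL (624 and 585, -0.25) to CTDP1 (112 and 130, 0.06). The PIKFYVE partners VAC14 and FIG4 had 124 and 99 counts (-0.48) and 37 and 56 (0.44), and the OBSL1 partners CCDC8 and CUL7 had 160 and 191 (0.10) and 89 and 132 (0.41).

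**Figure D4:**
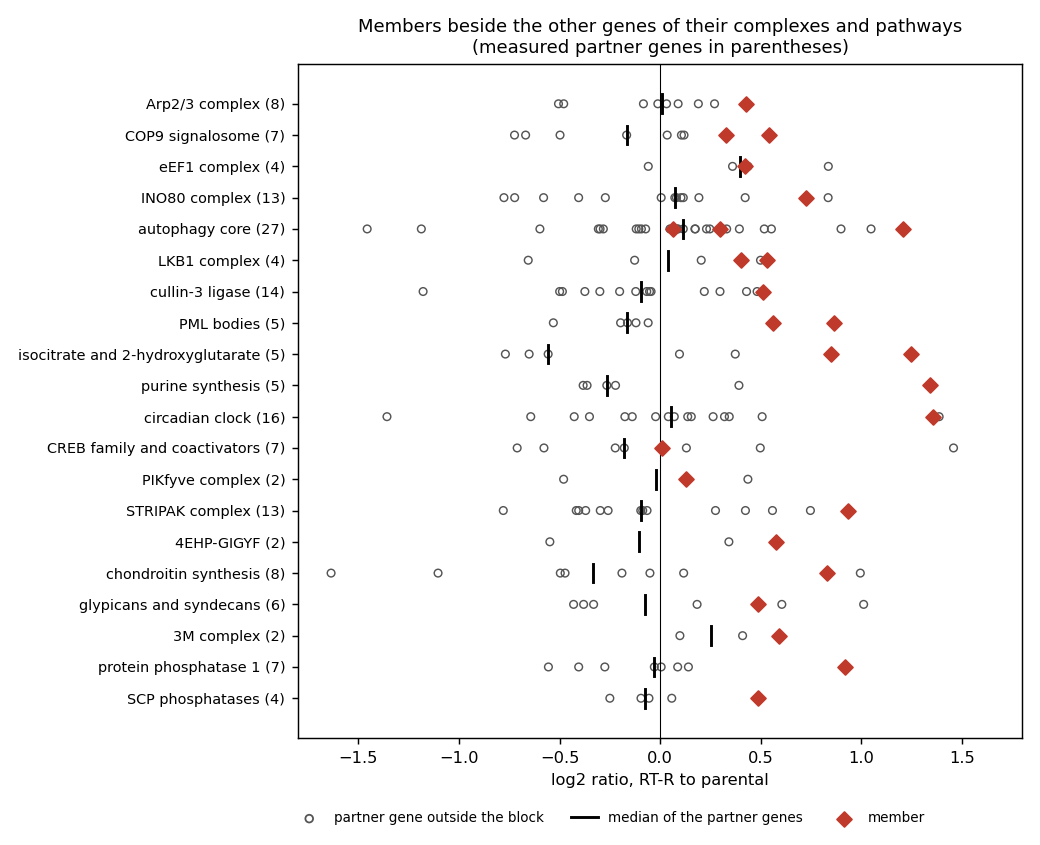
Log2 ratio of RT-R to parental for members (red diamonds) and for the measured genes outside the block that share a complex or pathway with them (open circles), 1 row per list, with the median of the partner genes as a black bar. The diamond lies right of the bar in 25 of 26 cases, and furthest from it for IDH1, D2HGDH and ATIC.

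Neighbours that start within 1000 bases of a member and are read in the opposite direction gave 9 pairs in which both genes were measured. In 6 the log2 ratios differed by at most 0.3. Ratios in the block lay close together in any case, with 35 of the 57 measured members within 0.3 of the member median. Whether such pairs were closer than other block genes was not tested. The starts of SP110 and SP140 lie 100 bases apart, and their log2 ratios were 0.86 and 0.75; the 2 genes also overlap in the gene table, so their reads may be mixed. EEF1B2 and NDUFS1, a respiratory complex I subunit, start 165 bases apart and had 0.42 and 0.50. STK16 and GLB1L, 35 bases apart, had 0.29 and 0.02, and ING5 and DTYMK, 205 bases apart, had -0.06 and 0.11, so both genes of the latter pair were near equal expression. STK36 and RNF25, 84 bases apart, differed most, with 1.15 and 0.39, but RNF25 had only 30 and 44 counts and its interval, 0.808 to 2.17, overlaps that of STK36. ATG4B and THAP4, 535 bases apart, had 1.21 and 0.47, and THAP4, with 560 and 866 counts and a ratio of 1.39 with an upper bound of 1.54, lay below the ATG4B interval.

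Member promoters were rich in G and C, with a median of 67.2% against 58.3% over 27305 first listed promoters. These 27305 include genes not measured here, while nearly all members were measured. Values over measured genes alone were not computed, so the differences cannot be read as particular to the block. The GC box was found in 45 of 54 member windows (83.3%) and in 44.6% of all windows, the CCAAT box in 29.6% and 35.7%, the cAMP element core in 37.0% and 25%, the ETS core in 18.5% and 10.7%, and the TATA box in 7.41% and 12%. The E-box occurred in 6 member windows (11.1%) and in 7.43% of all. Those 6 genes were ATIC, ARMC9, RHBDD1, STK25, GMPPA and GIGYF2, with log2 ratios from 0.58 to 1.34 and a median of 1.02, and the 46 measured members without it had a median of 0.55. With the GC box the median was 0.56 over 43 members and without it 0.94 over 9. The ETS core went the same way as the GC box, with 0.40 over 9 members that hold it and 0.62 over 43 that do not. For the other motifs the medians with and without a match were 0.59 and 0.58 (CCAAT box), 0.62 and 0.58 (cAMP element core) and 0.55 and 0.59 (TATA box, 4 members with it). These matches describe letters in a window and were compared with no test.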

How the data were processed

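Per the labels' protocols, 500 ng of total RNA per line was made into Lexogen QuantSeq libraries. The authors deposited raw counts by gene symbol, with 1 table for each library. The submitters' processing notes name hg19 as build and, as tools, Bowtie2, bedtools and bcl2fastq (2.20.0.422). Their roles, the annotation, the use of strand and the treatment of multiply mapped reads: not given in the sources used here.

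Repeated symbols were summed. Libraries were scaled by TMM in edgeR 4.0.16 under R 4.3.3 (RT-R to parental size ratio 1.12), and log2 ratios used scaled counts plus 0.5. Fold ratios carry exact conditional (Clopper-Pearson) 95% intervals from scipy 1.17.1, without the pseudocount. The 1.5-fold and 2-fold thresholds were applied to the log2 ratios. A gene was measured when either library had 20 or more counts of it. With 1 library per line no p-values were computed, and edgeR and DESeq2 1.42.0 served for scaling alone. Gene order came from RefSeq (GRCh38.p14), by symbol or unambiguous synonym, placing 12466 of 12644 measured genes; since the counts were made on hg19, no gene coordinates are printed, and promoter positions are those of GRCh38.p14. Ratios and calls were tested on simulated libraries.

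The members, role groups and partner lists were chosen with earlier results of these data known. Named were every member, the highest and lowest gene of each partner list, the 5 highest and 5 lowest other block genes by the interval bound nearest to 1, and 3 genes on each side of RAPH1's end; the run near ATG9A and the promoters were chosen after their values were seen. Some results that this rule names are not reported here. Alternatives were 4 scalings, a pseudocount of 5, count minimums of 0 and 100, other fold rules, the highest row of repeated symbols and the mean over members.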

Additional observations from a re-analysis of the deposited data

How the results depend on the processing

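No paired analysis was possible because each line had 1 library. The median log2 ratio of the members was 0.58, and 0.58 to 0.63 under the alternatives tried for it (total counts, median of ratios, upper quartile, TMM without chromosome 2, a pseudocount of 5, count minimums of 0 and 100, the highest row of repeated symbols and the mean). The number of members at least 1.5-fold higher was 28, and 26 to 32 under these; at a lower threshold, a log2 ratio of 0.32, it was 46, since that threshold admits more genes. The number that rose at least 2-fold was 10, and 8 with a minimum of 100 counts, which leaves out SGPP2 and PER2. The median of the other block genes was 0.55, and 0.33 to 0.59 under the alternatives, lowest without a count minimum, which brings in genes with no counts. The rest of chromosome 2 stayed between 0.00 and 0.05. Of the 57 members 0 changed the sign of its log2 ratio under the 4 other scalings or the pseudocount of 5. Scaling moved every log2 ratio by at most 0.04. With the pseudocount of 5 the log2 ratio of SGPP2, which had 3 parental counts, was 1.55 in place of 2.41. The counts allowed no ratio for INPP5D and SCLY.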
